A study of Mus musculus with 4 samples.

Results

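Motile cilia are the beating hairs of airway cells that sweep mucus and inhaled particles out of the lung. Their core, the axoneme, is a ring of doublet microtubules: dynein arms drive the sliding that bends it, radial spokes pass signals from the central microtubules to the arms, and tektins are filaments within the doublet walls. Intraflagellar transport (IFT) carries building blocks along the axoneme and is needed by motile and non-motile cilia alike, so it is found in many lung cell types. The genes described here are those whose symbol in the deposited tables starts with Dnah, Dnaic, Dnali, Rsph, Tekt or Ift and a number. There were 26 of them among 23284 genes: 3 dynein chains, 6 radial spoke genes, 5 tektins and 12 transport genes. All were protein coding. No symbol of the form Dnah and a number occurs in the tables, since the dynein heavy chains stand there under the older prefix Dnahc. These 11 heavy chains are given apart from the 26 members.

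The 4 libraries, each the only one of its group, hold RNA from whole C57BL/6 lungs. HDM (house dust mite) allergen, a common trigger in mouse asthma models, was used to sensitize and challenge wild-type and IL22-/- animals, the latter without a working copy of the IL-22 cytokine gene, and lungs were collected 48 h after its final dose. The remaining libraries came from wild-type animals 24 h after recombinant IL-22 or the carrier PBS (phosphate-buffered saline) was given through the trachea. How the knockout was made, the age of the mice, and whether a library is 1 lung or a pool, were not given in the sources used here. The values were taken to be FPKM, fragment counts corrected for transcript length and for library size. The unit was not named with them and was inferred from the tools the submitters listed. From the steps of low values the depth was estimated as 24.85 M reads for wild type after HDM, 27.15 M for the knockout after HDM, 19.9 M with PBS and 28.6 M with IL-22. As a check of the labels, Il22 was at 0.362 FPKM, or 8 reads, for wild type after HDM and listed at 0 in the 3 other libraries, wild-type ones included, so its 0 cannot mark the knockout on its own. With 1 library per group there is no replicate check and no test: the 95% intervals of FPKM ratios below cover counting error in these libraries, not the spread between mice. In bulk RNA, fewer ciliated cells and less RNA per ciliated cell cannot be told apart.

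Promoters of 21 of the 26 members are in the RefSeq promoter table (GRCm38.p6, 250 bases before to 50 after a start). Factors of the RFX family bind a palindromic site, the X-box, and with Foxj1 they drive genes of motile cilia. The X-box, searched on both strands by its consensus with a gap of 0 to 3 bases between its arms, was found in 5 of the 21, namely Dnaic1, Dnaic2, Rsph3b, Tekt2 and Ift57, and in 1.75% of the 27025 genes of that table. That of Rsph3b lies 10 to 22 bases after the start. For the other 4, the stretch from 100 bases before a start listed in that table to the end of the last X-box is shown, with X-box matches in capitals, because both axoneme and transport genes are among them and carry these letters.
Dnaic1, chr4:41569694-41569787, plus strand: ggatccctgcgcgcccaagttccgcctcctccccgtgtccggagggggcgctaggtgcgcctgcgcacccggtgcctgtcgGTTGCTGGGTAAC
Dnaic2, chr11:114727319-114727398, plus strand: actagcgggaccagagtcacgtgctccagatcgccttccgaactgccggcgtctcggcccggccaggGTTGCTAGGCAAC
Tekt2, chr4:126325705-126325788, minus strand: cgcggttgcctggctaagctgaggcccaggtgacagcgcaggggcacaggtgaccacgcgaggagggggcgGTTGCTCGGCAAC
Ift57, chr16:49699194-49699246, plus strand: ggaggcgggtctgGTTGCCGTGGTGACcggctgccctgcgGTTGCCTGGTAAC
The starts listed for Dnaic1 and Dnaic2 lie inside the gene spans given below and are not the outermost ends of these genes. Tekt2 has 3 listed starts, of which the most upstream was used, and its X-box lies at -29 to -17 from it. In the GENCODE M21 annotation 13 bases of the Dnaic1 window and 14 of the Ift57 window fall within an annotated UTR. For the Dnaic2 and Tekt2 windows the number was 0. Where in the windows these bases lie was not recorded. The Ift57 window holds separate matches, at positions -87 to -74 and -60 to -48 relative to the start. The shorter core GTTGCC, which can overlap an X-box, was in 10 of the 21 members and in 14.1% of all genes in the table. The forkhead core TGTTTAC was in 1 member, Tekt3, and in 4.05% of all genes. Of 14 heavy chain genes with a promoter there, none held the X-box in this window. These are matches of letters and not measured binding.

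In each library the most abundant members were Ift20, a small transport protein also found at the Golgi, and Rsph1, a protein of the spoke head. Ift20 (chromosome 11, 78536361 to 78541732 of mm10) had 92.9 FPKM (wild type) and 83.7 (knockout) after HDM, 80.3 with PBS and 79.2 with IL-22. Rsph1 (chromosome 17, 31255019 to 31277296) had 54.7, 48.01, 76.9 and 87.5 in the same order. Ift20 was thus above Rsph1 in 3 libraries and below it with IL-22. Dnali1, Rsph3a, Rsph3b, Tekt1, Ift27, Ift52, Ift57 and Ift74 lay between 11.3 and 28.8 in every library. Rsph6a, a spoke head paralog known from sperm, was listed at 0 in all 4. Tekt3, also a sperm tektin, had 0.442, 0.523, 0.910 and 0.765, which is 17 to 34 reads, and stayed below the mean FPKM of 1 asked of a measured gene. The other 24 members were measured in both tables.

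**Figure D1:**
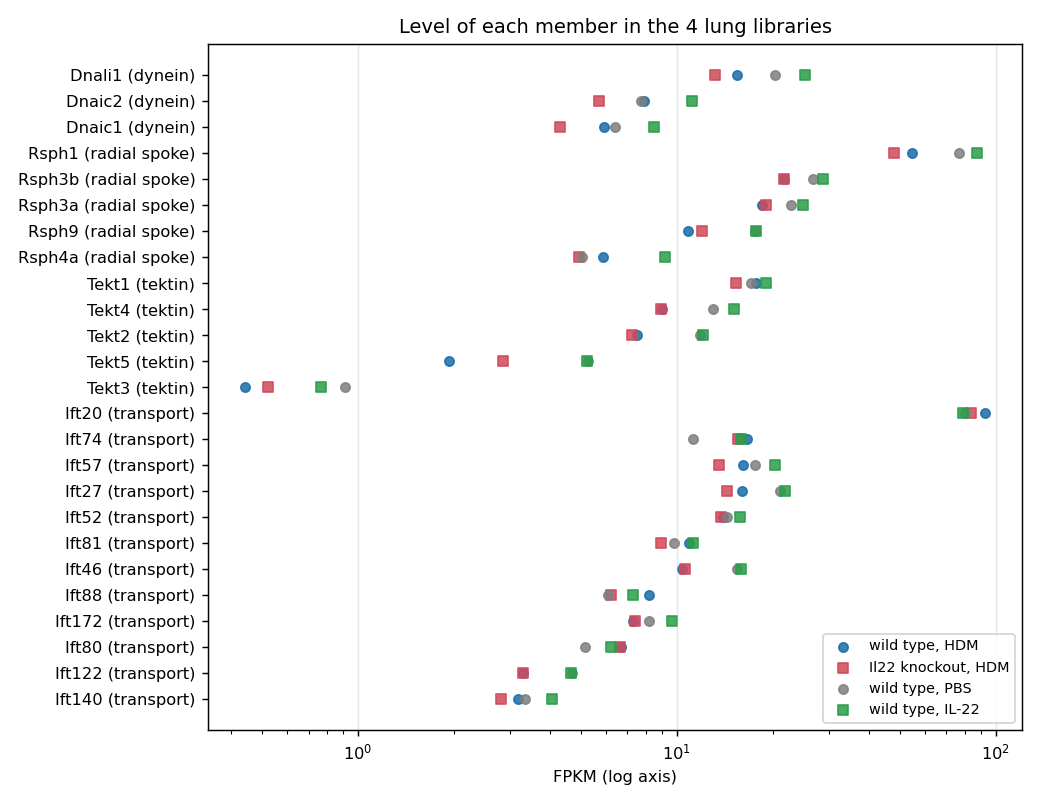
FPKM (log axis) of the 25 members above 0 in the wild-type HDM, Il22 knockout HDM, PBS and IL-22 libraries, 1 point per library, grouped by class and ordered by the wild-type HDM level. Ift20 and Rsph1 lie highest and Tekt3 lowest; the knockout HDM points of the 3 dynein genes lie left of their wild-type HDM points, and their IL-22 points lie right of their PBS points.

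The HDM libraries share a deposited table, and the other libraries share a second one. Scaling may differ between them, so levels across tables are set side by side without a difference. For 16 of the 24 measured members both HDM libraries lay below both other libraries, as did 36.0% of the 13317 genes that averaged 1 FPKM or more over the 4 libraries. Both HDM libraries lay above both others for 2 members, Ift20 and Ift80, and for 28.5% of all genes. Tekt5, another tektin known from sperm, showed the order widely, at 1.93 and 2.86 FPKM after HDM against 5.25 and 5.24.

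The HDM pair addresses how the allergic lung differs when IL-22 is missing. No member differed 2-fold between its libraries. Calls required a log2(FPKM + 1) difference of 1 or more in size. None of the 24 members was called higher, beside 0.549% of 13285 measured genes, and none lower, beside 2.42%. At a size of 1.5-fold there was again no member either way, beside 3.23% of genes higher and 6.41% lower. The differences ran from -0.40 to 0.39. Those of 17 members lay below 0 (46.1% of all genes) and those of 7 above 0 (53.9%), with Rsph3b at 0.00, and the median was -0.11 against 0.03 for all genes. Members below 0 numbered 21 with the median ratio scaling (6642 of 13285 genes) and 14 with a common total without Scgb1a1 (42.8%), and the median stayed below 0 in both. The 95% counting interval of the FPKM ratio, knockout over wild type, lay wholly below 1 for 10 members (41.7%, against 27.1% of 11542 genes with an interval) and wholly above 1 for 1 member (4.17%, against 31.5%).

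The dynein chains had the median farthest from 0 of the 4 classes, -0.38, and all 3 had intervals below 1. Dnaic2 (chromosome 11, 114721341 to 114757889), an intermediate chain of the outer arm, had 7.89 (wild type) and 5.72 (knockout) FPKM, a ratio of 0.725 (0.636 to 0.826). Dnaic1 (chromosome 4, 41569647 to 41638158), its partner in the outer arm, had 5.90 and 4.31, a ratio of 0.731 (0.619 to 0.858). Dnali1 (chromosome 4, 125055339 to 125065657), a light intermediate chain of the inner arms, had 15.5 and 13.2, a ratio of 0.854 (0.769 to 0.948). Each was lower in the knockout library, also under the 3 other scalings tried.

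The heavy chains, the motors of the arms, showed the same order. Of the 11, 10 had a lower FPKM in the knockout and 9 an interval below 1, but only 4 reached the level asked of a measured gene. No share of all genes was taken that matches the counts over all 11. All 4 lay below 0 (46.1% of all measured genes) and had an interval below 1 (27.1% of measured genes with an interval). Dnahc5 (Dnah5, chromosome 15, 28154854 to 28472045), a motor of the outer arm, had 4.06 (wild type) and 2.56 (knockout) FPKM, a ratio of 0.631 (0.584 to 0.683). Dnahc9 (Dnah9, chromosome 11, 65831324 to 66168581), also of the outer arm, had 1.92 and 1.11, a ratio of 0.579 (0.510 to 0.656). Dnahc6 (Dnah6), of the inner arms, was at 2.76 and 1.84, and Dnahc10 (Dnah10), also of the inner arms, at 1.29 and 0.971. Dnahc17 was the 1 heavy chain with a higher FPKM in the knockout, at 0.106 and 0.127. Dnahc7a and Dnahc7b are close paralogs that can share reads. Heavy chain transcripts are over 10000 bases long, and the 194 measured genes of that length had a median difference of -0.02, beside -0.44 for the 4 measured heavy chains.

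Radial spoke genes went both ways, with a median of 0.00 whose sign depended on the scaling. Rsph1 had a ratio of 0.877 (0.812 to 0.948). Rsph4a (chromosome 10, 33905111 to 33916021), a spoke head protein, had 5.85 (wild type) and 4.95 (knockout) FPKM, a ratio of 0.846 (0.744 to 0.962). Rsph9, the remaining spoke head protein measured, had 10.8 and 11.97, with an interval of 0.916 to 1.34 that holds 1. Rsph3a and Rsph3b, near-identical copies of a spoke stalk gene on chromosome 17, were at 18.5 and 19.1, and at 21.7 in both libraries. Reads can be shared between these copies, and Rsph3a also shares exon bases with an antisense gene, so each value is uncertain. Without them the median of the spoke genes was -0.19.

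Among the tektins, Tekt1 and Tekt5 lay apart. Tekt1 (chromosome 11, 72344717 to 72362442) had 17.8 (wild type) and 15.3 (knockout) FPKM, a ratio of 0.862 (0.761 to 0.976). Tekt5 (chromosome 16, 10357952 to 10395455), the only member with an interval above 1, had 1.93 and 2.86, or 52 and 84 reads, a ratio of 1.48 (1.03 to 2.13). Tekt2, a tektin of airway cilia that shares exon bases with an antisense gene, had 7.49 and 7.22, and Tekt4, also of cilia and sperm, 9.02 and 8.94, both within counting error.

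Of 12 transport genes 9 lay below 0, with a median of -0.11, and 4 (33.3%, against 27.1% of all genes) had an interval below 1. These 4 belong to IFT-B, the complex of outward transport, as do 10 of the 12. Ift88 (chromosome 14, 57424064 to 57517936), without which cilia fail to form, had 8.16 (wild type) and 6.23 (knockout) FPKM, a ratio of 0.764 (0.676 to 0.863). Ift81 (chromosome 5, 122540265 to 122614546), which carries tubulin together with Ift74, had 10.9 and 8.95, a ratio of 0.820 (0.737 to 0.911), while Ift74 itself was at 16.6 and 15.6 (0.850 to 1.04). Ift57, whose promoter is shown above and whose exons overlap an antisense gene, had 16.2 and 13.6, a ratio of 0.839 (0.764 to 0.920), and Ift20 had a ratio of 0.900 (0.848 to 0.956). The intervals of Ift27, Ift46, Ift52, Ift80 and Ift172 and of the IFT-A subunits Ift122 and Ift140, which serve the return journey, held 1. Ift46, Ift52, Ift80, Ift122 and Ift172 had differences between -0.02 and 0.03. Ift140 had 3.17 and 2.82 FPKM and Ift27, a small GTPase, 15.97 and 14.4. The levels of the rest were 10.4 and 10.6 for Ift46, 14.0 and 13.8 for Ift52, 6.67 and 6.65 for Ift80, 3.29 in both for Ift122, and 7.27 and 7.38 for Ift172, a large IFT-B subunit.

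**Figure D2:**
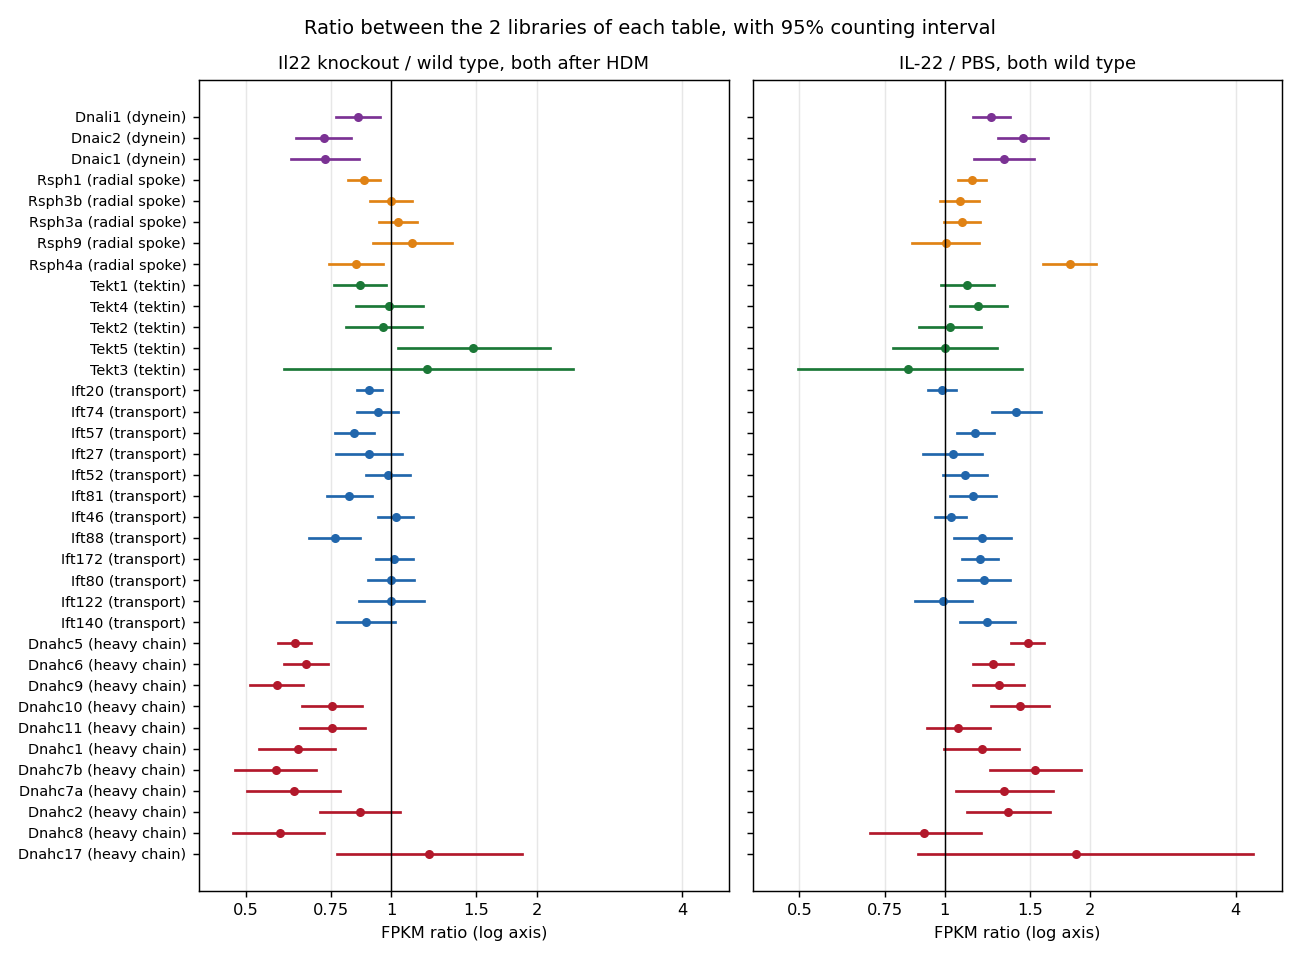
FPKM ratio of the second to the first library of each table (log axis) with its 95% counting interval, for 25 members above 0 and the 11 heavy chains, colored by class; a vertical line marks 1. In the HDM panel 10 members and 9 heavy chains lie wholly left of 1 and Tekt5 wholly right, while in the IL-22 panel 13 members and 7 heavy chains lie wholly right and none wholly left. No share of all genes was taken that matches the counts of heavy chains.

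The comparison of IL-22 with PBS asked what the cytokine does in a lung without allergen. Again no member differed 2-fold: none was called higher, beside 0.597% of 13233 measured genes, and none lower, beside 0.189%. Of the 24, 21 lay above 0 (58.6% of all genes) and 3 below 0 (41.4%), with a median difference of 0.18 against 0.04. The differences ran from -0.02 to 0.75. The ratio of IL-22 to PBS had an interval wholly above 1 for 13 members (54.2%, against 26.3% of 11521 genes) and wholly below 1 for none (14.6% of all genes). With the median ratio scaling 18 members lay above 0 (6615 of 13233 genes) and 11 had an interval above 1 (20.4% of all genes). With a common total all 24 lay above 0 (78.3%) and 18 had an interval above 1 (45.6%). At a size of 1.5-fold 1 member was higher, Rsph4a, and none lower, beside 1.96% and 0.461% of all genes.

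All 3 dynein chains were higher with IL-22, with a median of 0.36 and the same sign under each scaling. Dnaic2 was at 7.70 FPKM with PBS and 11.2 with IL-22, a ratio of 1.45 (1.29 to 1.64). Dnaic1 was at 6.39 and 8.48, a ratio of 1.33 (1.15 to 1.53), and Dnali1 at 20.3 and 25.3, a ratio of 1.25 (1.14 to 1.36). Of the 11 heavy chains 10 had a higher FPKM with IL-22 and 7 an interval above 1, again without a matching share of all genes. Among the 5 measured ones all 5 lay above 0 (58.6% of all measured genes) and 4 had an interval above 1 (26.3% of measured genes with an interval). Dnahc5 was at 3.14 and 4.66, a ratio of 1.48 (1.37 to 1.60), Dnahc9 at 1.54 and 1.99, and Dnahc8 was the exception at 0.364 and 0.330 (0.700 to 1.19). Differences also grew with transcript length over all genes here: the median was -0.02 for 2192 genes of 400 to 1500 bases and 0.13 for 198 genes of at least 10000 bases, beside 0.25 for the 5 measured heavy chains. The part of length in these ratios was not tested.

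The radial spoke gene Rsph4a showed the largest ratio of all measured members, at 5.05 FPKM with PBS and 9.16 with IL-22, or 347 and 904 reads, a ratio of 1.81 (1.60 to 2.06). Rsph1 had a ratio of 1.14 (1.07 to 1.21). Rsph3a, Rsph3b and Rsph9 had differences of 0.11, 0.10 and 0.01, within counting error. Rsph4a thus stood apart from Rsph9, its companion in the spoke head, which was at 17.6 and 17.7. Tekt4 was the tektin with an interval above 1, at 13.0 and 15.2 FPKM, a ratio of 1.17 (1.02 to 1.34). Tekt1 had 17.1 and 19.1, Tekt2 11.8 and 12.1, and Tekt5 5.25 and 5.24, all within counting error.

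Of the transport genes 7 of 12 had an interval above 1 (58.3%, against 26.3% of all genes with an interval) and the median was 0.19. Ift74 (chromosome 4, 94603266 to 94693233) differed most, at 11.3 FPKM with PBS and 15.8 with IL-22, a ratio of 1.41 (1.25 to 1.58), while its partner Ift81 was at 9.80 and 11.2, a ratio of 1.14 (1.03 to 1.27). Ift140, Ift80, Ift88, Ift172 and Ift57 had ratios from 1.16 to 1.22. Ift20 and Ift122, at ratios of 0.986 and 0.991, lay just below 0, as did Tekt5, and all 3 turned positive when libraries were scaled to a common total. The other levels with PBS and with IL-22 were 3.33 and 4.07 FPKM for Ift140, 5.16 and 6.22 for Ift80, 6.10 and 7.30 for Ift88, 8.19 and 9.69 for Ift172, and 17.6 and 20.4 for Ift57. Ift27, Ift46 and Ift52 stayed within counting error, at 21.1 and 21.9, 15.4 and 15.9, and 14.4 and 15.8.

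Set side by side, 16 of the 24 members were below 0 in the knockout comparison and above 0 in the IL-22 comparison, as were 27.8% of 12902 genes measured in both. They were all 3 dynein chains, 2 of 5 spoke genes, 3 of 4 tektins and 8 of 12 transport genes. This count goes by sign only. Both counting intervals left out 1 for the dynein chains, Rsph1, Rsph4a, Ift57, Ift81 and Ift88, and for no tektin. How many of all genes did so was not counted, so these names stand without a background share. In the separate pairs, 27.1% of genes had an interval below 1 in the knockout and 26.3% had one above 1 with IL-22. Tekt2, Tekt4, Ift52 and Ift80 were within counting error in the HDM pair, and each changed sign in a comparison under some scaling. Ift27, Ift74 and Ift140 were also within counting error in the HDM pair, and Tekt1 was so in the IL-22 pair. The comparisons share no library.

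Other genes of the same structures were described from lists drawn from textbook knowledge. Among 20 measured genes of axoneme assembly and the central pair, none reached a log2(FPKM + 1) difference of 1 in either comparison. Of these, 19 lay below 0 after HDM (46.1% of all measured genes) and 18 above 0 with IL-22 (58.6%), and the medians were -0.25 and 0.22. Ttc25, a docking factor of outer arms, had 5.73 (wild type) and 3.44 (knockout) FPKM. Central pair genes included Spag16 with 3.18 and 1.88, Hydin with 1.54 and 0.912 and Spag6 with 7.93 and 5.78. With IL-22, Spef2, a central pair protein, was at 1.42 FPKM against 0.590, a ratio of 2.41 (1.76 to 3.45), but a difference of 0.61 once the pseudocount of 1 is added. Lrrc6, a dynein arm assembly factor, was at 5.05 against 3.08, Ccdc39, which sets the axoneme's spacing, at 6.05 against 3.95, and Spag6 at 9.45 against 6.44. Genes of transport partners, the motors and remaining subunits of IFT, had medians of 0.02 over 18 genes and 0.22 over 17. Ttc30a1, Ttc30a2 and Ttc30b, close paralogs of an IFT-B subunit that can share reads, and Ttc21b, of IFT-A, differed most in the HDM pair, at 0.27 to 0.34. With IL-22 the differences farthest from 0 were 0.45 for Ttc30a2, 0.40 for Ttc30a1 and Ttc30b, and 0.38 for the IFT-B gene Traf3ip1. The 9 genes of the BBSome and its recruiter Arl6, which ferry membrane proteins out of cilia, had medians of 0.09 and 0.17, with Bbs9, Bbs4, Bbs7 and Bbip1 at 0.25, 0.20, 0.17 and 0.16 after HDM and Bbs1, Bbs5, Ttc8 and Bbip1 at 0.25, 0.21, 0.19 and 0.18 with IL-22. In the HDM pair the median of the transport partners lay next to the 0.03 of all genes and was -0.00 with the median ratio scaling. Those of the dynein chains and of axoneme assembly were below 0 under each scaling. So was that of the transport members, which ran from -0.13 to -0.09. Across the scalings the spoke gene median ran from -0.03 to 0.02 and the tektin median from -0.06 to -0.01.

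Of 9 measured regulators of cilium formation 6 lay below 0 in the HDM pair (66.7%, against 46.1% of all measured genes), with a median of -0.05. With IL-22 7 lay above 0 (77.8%, against 58.6%), with a median of 0.20, and none was called in either pair. The regulator farthest from 0 in the HDM pair, at -0.58, was Foxj1, the master transcription factor of motile cilia. It had 59.1 (wild type) and 39.3 (knockout) FPKM after HDM, a ratio of 0.665 (0.632 to 0.700), and 65.9 with PBS and 82.2 with IL-22, a ratio of 1.25 (1.19 to 1.30). Rfx1, Rfx2 and Rfx3, of the family that binds the X-box, differed by -0.05 to 0.10 in the HDM pair and -0.06 to 0.22 in the other. Myb, which acts early in ciliated cell formation, was at 5.77 and 4.76 after HDM and at 6.01 and 7.06. Ccno, needed to multiply basal bodies, was lower in both, at 2.63 and 1.92 and at 3.31 and 2.44. E2f5, another cell cycle factor used by multiciliated cells, was higher in both, at 7.16 and 8.74 and at 5.84 and 7.08. Trp73, a p53 family factor of ciliated cells, had differences of -0.20 and 0.20, and E2f4, a partner of E2f5, of -0.03 and 0.05.

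The samples held the RNA of ciliated cells: all 13 markers found in the tables were above 0 in each library, and none of the measured ones differed 2-fold. In the HDM pair 12 of 13 lay below 0 (92.3%, against 46.1% of all measured genes), with a median of -0.24. All 13 summed to 1278 FPKM (wild type) and 1105 (knockout). The largest parts were Tuba1a, at 320.8 and 286.8, and Tubb4b, at 256.8 and 217.8. With IL-22 10 of 13 lay above 0 (76.9%, against 58.6% of all measured genes), with a median of 0.25, and the sum was 1631 against 1501 with PBS. Tuba1a was at 443.8 with IL-22 against 433.4 with PBS, while Tubb4b was lower, at 335.5 against 341.9. Of 10 club cell markers 7 lay above 0 in the knockout (53.9% of all measured genes), with a median of 0.18. With IL-22 7 lay below 0 (41.4%), with a median of -0.15. Their summed FPKM was 130714 (wild type) and 136393 (knockout) after HDM, 156585 with PBS and 125997 with IL-22. Scgb1a1 alone held 124426, 127473, 141280 and 112693 of these, so the sums mostly follow that gene. Of 7 measured goblet cell markers 4 were lower after HDM without IL-22 (2.42% of all measured genes), with a median of -1.25. Their sums were 1715 and 498.1, of which Clca3 held 1343 and 326.1. In the IL-22 pair 2 of 6 were higher (0.597%), namely Clca3 and Bpifb1, while Spdef differed by 0.09. The median was 0.54 and the sums were 220.1 and 435.0, of which Bpifb1 held 152.0 and 324.3. Alveolar type I markers had medians of 0.23 and -0.22, and type II markers of -0.00 and -0.08, both of which turned positive with a common total. None of 5 basal cell and none of 7 sperm markers was measured; of the latter, summed FPKM was at most 0.243 and Smcp, Odf1 and Tnp1 were at 0 throughout. The part of these cell type markers in the members' values was not tested.

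**Figure D3:**
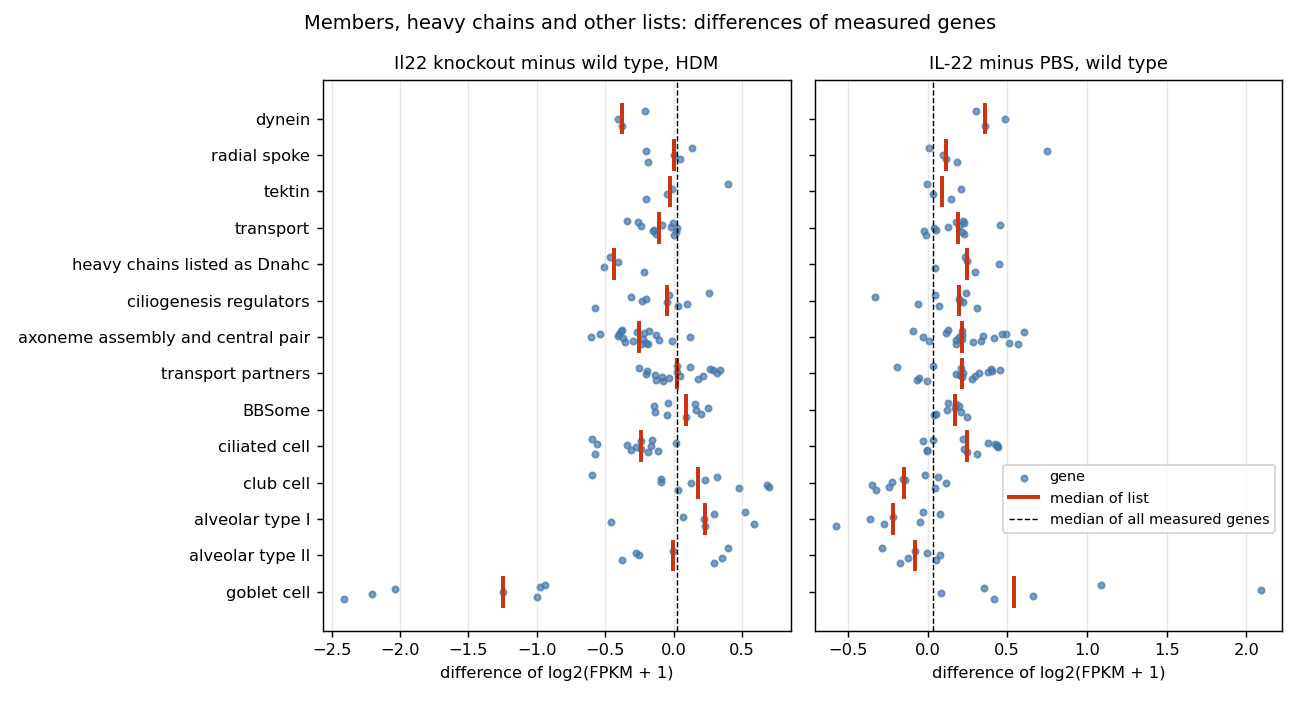
Difference of log2(FPKM + 1) for measured genes (points) and their median (bar) in the 4 member classes, the heavy chains and the lists of related genes and cell markers; a dashed line marks the median of all measured genes, 0.03 and 0.04. Dynein, heavy chain, axoneme assembly and ciliated cell genes lie mostly left of the line in the HDM panel and right of it in the IL-22 panel, on a scale smaller than that of the goblet cell genes.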

How the data were processed

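Lung RNA of 4 libraries, 1 per group by the sample titles, was analysed. The authors deposited values per gene in 2 tables, taken here to be FPKM because of the tools listed. Per the submitters' processing notes, the build was mm10 and the tools were Cufflinks 2.2.1, TopHat2 and CASAVA 1.8.2, without their settings. Tables of 23746 rows were joined on symbol and accession, 25 symbols that had become dates were restored from the accession, and rows of a symbol were added. Differences of log2(FPKM + 1) were taken within a table for genes whose 2 libraries averaged 1 FPKM or more, and a size of 1 was called. Counting intervals are exact 95% binomial (Clopper-Pearson) on reads estimated from FPKM, depth and GENCODE M21 transcript length less 200 bases; 65.6 to 67.5% of low values lay within 0.1 of a whole read at the fitted depth. A length that differs from the one used would shift the reads. Steps were tested on simulated data. Coordinates are RefSeq's for GRCm38.p6, matched by accession for 25 of 26 members and by symbol for Tekt5. Exons of 7 members overlap those of a gene on the opposite strand, by 100 bases or more for 3 (Ift57, Rsph3a and Tekt2); the use of strand in counting is not stated.

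Every member was named, and of each related list the 4 differences farthest from 0 in each comparison were named. Rfx1, Rfx2, Trp73, E2f4, Cdhr3, Cetn4, Fam183b, Sntn, Tuba1a, Tubb4b, Scgb1a1, Clca3, Bpifb1 and Spdef were chosen after their values were seen. Members and lists were chosen with earlier results of these data known. The heavy chain list was added after the symbols were seen. Alternative settings changed the pseudocount (0.1), the scaling (median ratio, common total), the filter (none, or a mean of 5 FPKM), the size rule (1.5-fold) and the rows used (highest per symbol). A total without Scgb1a1, members by current name and leaving out Rsph3a and Rsph3b were added after seeing the data. Software was matplotlib 3.10.9, scipy 1.17.1, pandas 2.3.3, numpy 2.4.6 and Python 3.11.15.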

Additional observations from a re-analysis of the deposited data

How the results depend on the processing

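No member passed the 2-fold rule under any alternative tried in either comparison. In the IL-22 comparison the 1.5-fold rule called 1 member higher (Rsph4a). The median difference of members after HDM (-0.11) was -0.067 with no filter, which adds Rsph6a and Tekt3, -0.14 over the 21 members with a mean FPKM of at least 5, and -0.15 when current names added heavy chains and others, an alternative chosen after seeing the data. The median with IL-22 (0.18) was 0.14 with the median ratio, 0.28 with a common total and 0.23 with a common total without Scgb1a1, also chosen after seeing the data. The medians of all genes under these were -0.00, 0.13 and 0.08. Of 17 members below 0 after HDM, scaling gave 14 to 21; Rsph3b and genes close to 0 changed sign. No paired analysis was possible because there is 1 library per group, and for the same reason no library could be left out. Depth limits Tekt3 and Tekt5, with at most 34 and 162 reads in a library.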

Other observations

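Current RefSeq names add 3 rows of the same families besides the heavy chains. Rabl5, now Ift22, a small GTPase of IFT-B, had 26.99 (wild type) and 23.2 (knockout) FPKM after HDM, a ratio of 0.861 (0.807 to 0.919), and 29.3 with PBS and 35.9 with IL-22, a ratio of 1.23 (1.16 to 1.30). Rtdr1, now Rsph14, was at 4.69 and 2.96 after HDM and at 6.34 and 9.23 in the other pair. 1700019E19Rik, now Ift43, a subunit of IFT-A, was at 57.8 and 60.5 and at 71.8 in both libraries of the other pair. Within the ciliated cell markers, Cetn4, a centrin of basal bodies, and Cdhr3, a cadherin of ciliated cells, had ratios of 0.651 (0.579 to 0.731) and 0.664 (0.615 to 0.716) in the knockout. These were close to that of Foxj1, itself on the marker list, and with it were the lowest of the list. The other markers ran from 0.783 for Sntn to 1.01 (0.913 to 1.12) for Fam183b. With IL-22 the ratio of Fam183b was 1.31 (1.18 to 1.44).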
